A study of Paraphaeosphaeria sporulosa with 23 samples.

Results

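Among the 15164 genes of the filamentous fungus Paraphaeosphaeria sporulosa, strain AP3s5-JAC2a, 347 genes (2.29%) lay within 30 kb of a scaffold end. A scaffold is a stretch of assembled genome. The members were taken from the 17 scaffolds with at least 100 genes, 34 ends in all. A gene belonged when its lowest start was at most 30000 or when its highest end was within 30000 bases of the highest gene end on its scaffold. The last gene on a right end therefore has a distance of 0 by construction, and distances there are the least they can be. The rule used gene positions and gene numbers alone, and no expression level entered it. It was set with earlier results of these data known. An end held 1 to 15 members, with a median of 11.

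RNA was sequenced from whole cultures with and without 0.1 mM sodium selenite, an oxyanion of selenium(IV). All cultures came from a 14-day preculture and had 18 further days of still growth in a yeast extract medium before selenite was given to the treated flasks, which set day 0. There were 3 control libraries at day 0, 6 control and 5 selenite libraries at day 1, and 5 control and 4 selenite libraries at day 6. Whether replicates were separate flasks is not in the labels, so the p-values reflect library-to-library spread only, and some of that may be technical. The whole mycelium was sampled, so fewer cells of a kind and less RNA per cell cannot be told apart.

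In filamentous fungi the regions next to telomeres are known as places where genes are often silent or switched on under particular conditions, where chromatin is often repressive, and where gene content tends to vary between strains. Clusters of genes for secondary metabolites and genes for secreted proteins are often found there. The end of an assembled scaffold may be the end of a chromosome or a place where repeats stopped the assembly, and which of these applied to each end was not tested. All 329 members with a locus tag were found in the RefSeq gene table of assembly Parsp1, 327 of them as protein coding, but that table pairs none with a gene name or product. The other 18 members carried names beginning STRG. No role is therefore given to any member, and members are described by their position, level and change. Positions are those of the deposited count table, for which no build is named.

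Genes near the ends were less often detected and lay at lower levels than genes farther in. Of the 347 members, 34 (9.80%) had no read in any of the 23 libraries. The share was 4.23% of the 402 genes between 30 and 60 kb and 1.74% of the 14180 genes over 60 kb. A 95% Wilson interval for the members was 7.10% to 13.4%. It takes genes as independent draws, but silent members lay together at some ends, so it is too narrow. It is no test against the other shares. The median level, as mean CPM scaled for library composition and divided by exon length in kb, was 1.81 within 30 kb, 4.002 between 30 and 60 kb and 7.14 beyond. Over tested genes alone it was 5.88 and 9.18. Some 44.1% of members had a mean level under 1 scaled CPM, against 22.6% of genes over 60 kb. At the other extreme 27 members (7.78%) reached 100 scaled CPM, against 11.4% beyond 60 kb. Median exon length was 1140 bases for members and 1312.5 bases beyond 60 kb. Genes of the scaffolds with under 100 genes, which are not members, went further the same way. Of these 235 genes 21.7% had no read, and their median level was 1.03 scaled CPM per kb.

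The gradient with distance was uneven inside the 30 kb. Genes without a read made up 12.7% of those in the outermost 10 kb, 7.76% from 10 to 20 kb and 8.85% from 20 to 30 kb, and the share fell to 2.10% from 50 to 60 kb. The median level per kb was 2.17, 1.46 and 2.21 in the 3 bins inside 30 kb. It was 3.93, 3.31 and 4.75 in the next 3 bins. At the limit of 30 kb the last gene inside was CC84DRAFT_90 at 29967 bases, with a mean of 82.3 scaled CPM, and the first outside was CC84DRAFT_1179395 at 30013 bases, with 0.0476.

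**Figure D1:**
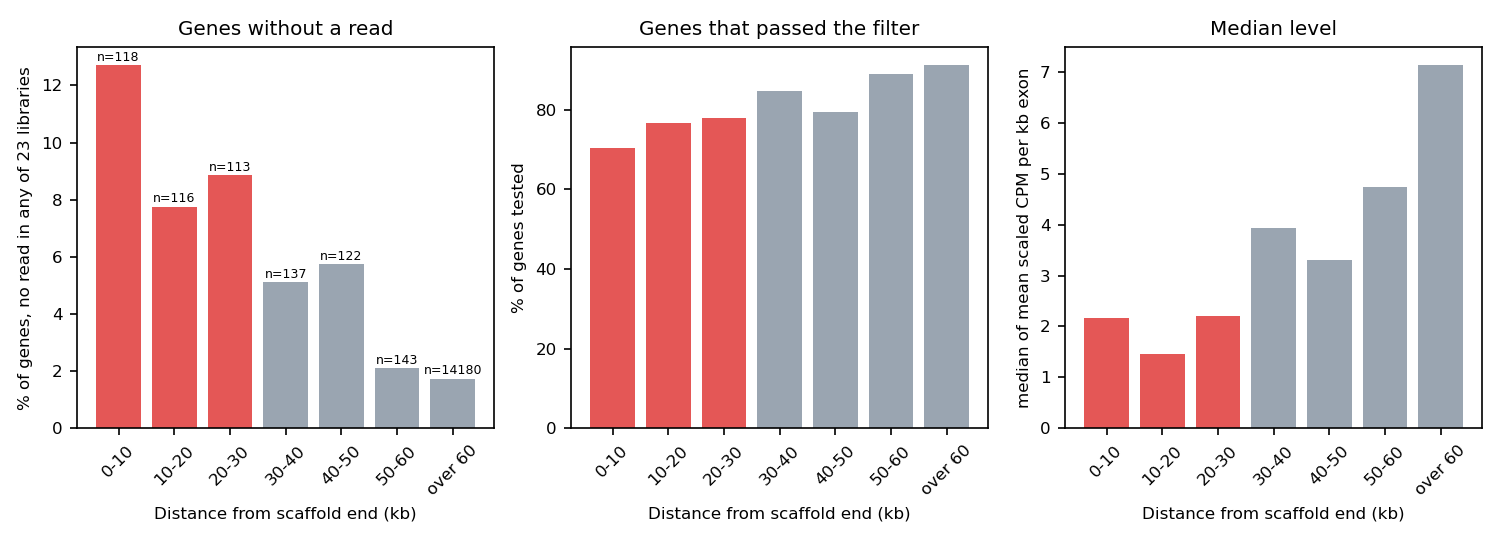
Genes of the 17 scaffolds by distance from the scaffold end in bins of 10 kb (red, within 30 kb; grey, farther in), with the number of genes in each bin: share without a read in any library, share that passed the filter on low counts, and median of the mean scaled CPM per kb of exon. The share without a read runs from 12.7% in the outermost bin to 1.74% beyond 60 kb.

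A few ends held much of the silence. The left end of NW_017253368.1 had 6 members, the outermost starting at 12787 bases, and none had a read. On the right end of NW_017253372.1, 6 of 7 members had no read, and the exception, CC84DRAFT_1054094, had 8295 reads over all libraries. These ends together held 12 of the 34 silent members. The only member on the right end of NW_017253376.1, CC84DRAFT_427957, had no read either. Under the counting options in the headers, reads that map to several places were not counted, and whether the silent members have near-identical copies was not tested. Silence was not general at ends: at 15 of the 34 ends every member had at least 1 read. Reads counted in genes numbered 23282564 to 32681888 per library. A count of 0 therefore allows up to 0.0918 to 0.129 CPM (3 reads) in a library, for counting error only. Both mates of a fragment were counted as separate reads, so a floor of 3 fragments would be higher.

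The outermost gene of each end was in many cases weakly expressed. Of these 34 genes, 7 had no read and 20 passed the filter on low counts, with a median level of 0.617 scaled CPM per kb over all 34. Among the 20, the test described below called 6 higher and 3 lower with selenite at day 1, and 6 higher and 4 lower at day 6. The background over all tested genes was 62.6% called at day 1 and 48.6% at day 6. Their number included some of the members that moved most, among them CC84DRAFT_1167990, CC84DRAFT_1105411, CC84DRAFT_1169622 and STRG.1272.

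The summed signal of the members fell into separate ranges with and without selenite, and 1 gene held a large share of it in the controls of day 0 and day 6. Reads in the 347 genes made up 1.54% ± 0.310 of all reads counted in genes at day 0 (SD, n = 3) and 1.21% ± 0.0726 in the day 1 controls (n = 6). They made up 0.591% ± 0.0618 with selenite at day 1 (n = 5). At day 6 they made up 1.78% ± 0.0484 in controls (n = 5) and 1.05% ± 0.110 with selenite (n = 4). On neither day did the selenite and control libraries overlap.

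CC84DRAFT_243126 took 32.4% ± 3.599 of the members' reads at day 0, 15.6% ± 5.11 in the day 1 controls and 37.99% ± 1.63 in the day 6 controls (SD, n = 3, 6 and 5). With selenite it took 4.88% ± 0.627 at day 1 and 2.86% ± 0.604 at day 6 (n = 5 and 4). Without it the shares were 1.02% ± 0.0543 and 0.562% ± 0.0606 at day 1 in controls and with selenite, and the groups stayed apart. At day 6 they were 1.11% ± 0.0256 and 1.02% ± 0.101, and the groups overlapped. After scaling for composition the sum without that gene ran from 8206 to 10686 scaled CPM with selenite and from 10730 to 13345 in controls at day 1. At day 6 it ran from 7252 to 8737 with selenite and from 6758 to 8236 in controls. The scaled ranges thus lay close together at day 1 and overlapped at day 6.

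**Figure D2:**
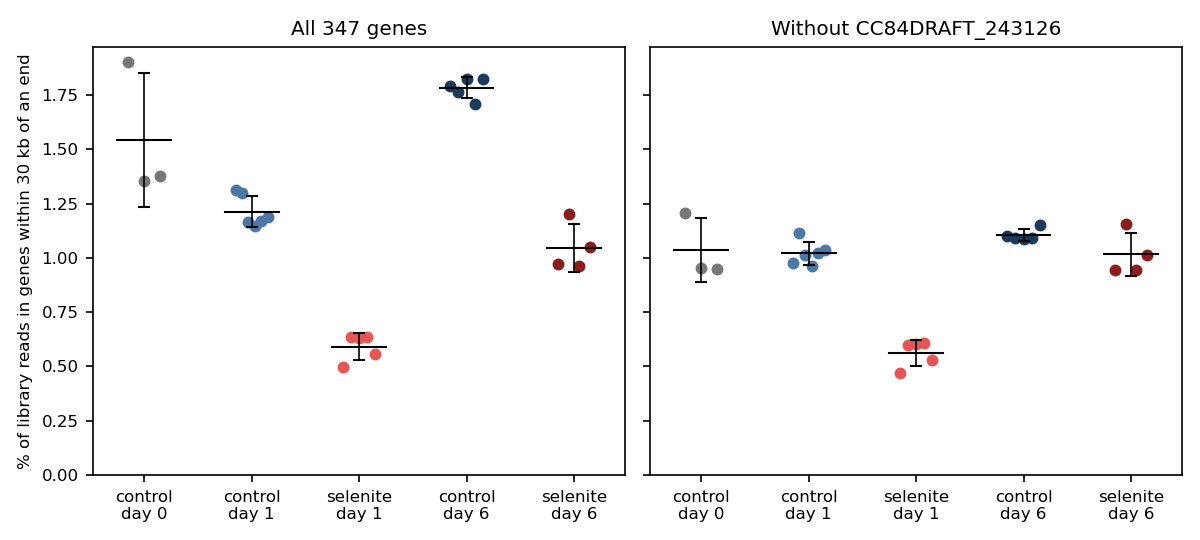
Percentage of each library's reads counted in genes that fell in the 347 genes within 30 kb of a scaffold end (left) and in the same genes without CC84DRAFT_243126 (right). Points are libraries, lines are group means and bars are SD. At day 6 the gap between controls (1.78%) and selenite (1.05%) closes to 1.11% and 1.02% without that gene.

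Fewer members were without a read with selenite at day 6 than in the other groups. Members without a read numbered 127 ± 4.16 at day 0, 121 ± 11.3 and 113 ± 7.81 in controls and with selenite at day 1, and 110 ± 12.9 and 75.3 ± 5.74 at day 6. The day 6 groups did not overlap. The share of members without a read was 31.8% in the day 6 controls and 21.7% with selenite, and over all genes it was 15.5% and 9.003%.

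Each member's change was tested with limma on log2(scaled CPM + 0.5), fitted across all 13676 genes that passed the filter on low counts, and a gene was called at a Benjamini-Hochberg adjusted p under 0.05. Fold changes on this scale understate the change of low genes. Of the members 260 passed the filter. The other 87 comprised the 34 silent genes and 53 genes with 1 to 83 reads in all libraries together. A member could pass through its level in 1 group, so counts below describe the tested members and not all 347.

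At day 1 selenite changed 137 of the 260 tested members, 64 higher and 73 lower, or 52.7%. Of all tested genes 62.6% were called, 30.8% higher and 31.7% lower. The share was 61.2% between 30 and 60 kb and 62.9% beyond. The median log2 change was 0.01 for members and -0.02 for all genes. Calls with at least a 2-fold change numbered 48 higher and 50 lower, and 46.3% of all tested genes had such a call. The split depended on the scaling: library size alone gave 45 higher and 93 lower, and DESeq2's size factors gave 78 higher and 61 lower. Those scalings moved the median of all genes by -0.40 and 0.18.

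At day 6 selenite changed 127 tested members, 75 higher and 52 lower, or 48.8%. Of all tested genes 48.6% were called, 27.1% higher and 21.5% lower. The median log2 change was 0.20 for members and 0.12 for all genes. At least 2-fold changes were called for 59 members upward and 36 downward, and for 34.6% of all tested genes. In 98 of the 260 members the libraries of the day 6 groups did not overlap, and this held for 38.3% of all tested genes. At day 1 the corresponding number was 85, with 42.1% of all tested genes. Without day 6 control replicates 1 and 3, day 6 calls numbered 99 members, 53 higher and 46 lower. Over all genes day 6 calls then fell from 6647 to 5317.

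Both days showed the same direction for most members called on both. Of the 260, 36 were higher on both days and 32 lower on both (13.8% and 12.3%, against 15.6% and 12.5% of all tested genes). A further 7 were lower at day 1 and higher at day 6 (2.69%, against 4.01% of all tested genes), and 1 was higher and then lower (0.385%, against 1.97%). On neither day was a call made for 72 members (27.7%, against 22.8%). The group with the highest mean was selenite at day 6 for 70 members (26.9%, against 18.5% of all tested genes) and selenite at day 1 for 64 (24.6%, against 28.8%).

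**Figure D3:**
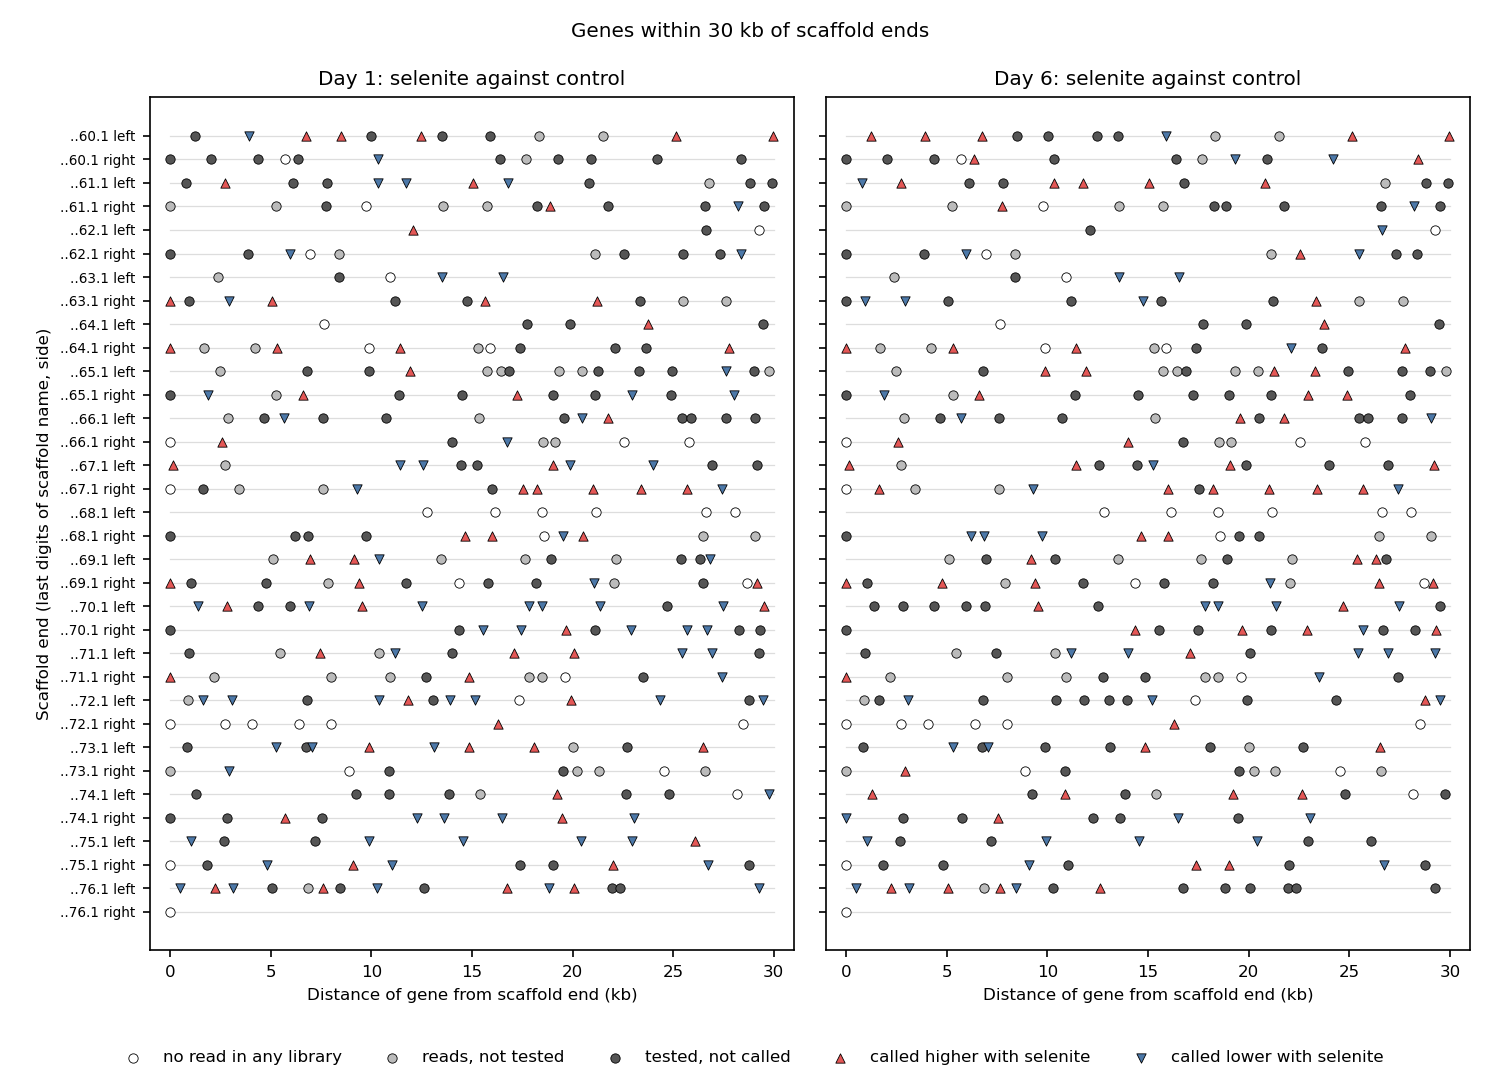
The 347 genes drawn at their distance in kb from the scaffold end (x) on each of the 34 ends (y), for selenite against control at day 1 (left) and day 6 (right); red triangles were called higher, blue triangles lower, dark circles tested but not called, grey circles had too few reads and open circles no read. Calls in both directions share most ends, 24 at day 1 and 22 at day 6.

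Among the members that rose at day 1, the largest change belonged to CC84DRAFT_1167990, the last gene on the right end of NW_017253369.1 (minus strand, 1421819 to 1422726). With selenite at day 1 its level was 62.6, 65.1, 43.1, 44.6 and 56.8 scaled CPM, and the 6 controls had a lowest value of 0, a median of 0.460 and a highest value of 1.26. At day 6 selenite libraries were at 202, 110, 87.4 and 130 and controls at 0.0496, 0.946, 0.693, 0.111 and 0.0895. Every selenite library exceeded every control by a wide margin, and day 0 libraries, at 0.0450, 0.319 and 0, were as low as the later controls. With selenite its log2 level changed by 5.78 ± 0.34 (SE, limma adjusted p = 2.33e-13) at day 1 and 7.29 ± 0.38 (adjusted p = 8.14e-14) at day 6.

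On the same end CC84DRAFT_1167988, 9406 bases from the end (minus strand, 1411980 to 1413320), behaved alike. Its selenite libraries were at 31.4, 20.8, 28.6, 26.6 and 33.2 scaled CPM at day 1, and the controls had a lowest value of 0.593, a median of 1.31 and a highest value of 2.98. At day 6 the selenite libraries were at 88.7, 92.3, 67.6 and 78.5 and the controls at 0.645, 0.597, 0.960, 1.94 and 1.48. Again no selenite library came near a control. In the fit this gave a log2 change of 4.01 ± 0.29 at day 1 (limma adjusted p = 1.47e-11) and 5.72 ± 0.33 at day 6 (adjusted p = 4.08e-13), and the change of both genes was larger at day 6 (adjusted p of the difference 0.00278 for this gene and 0.0181 for CC84DRAFT_1167990).

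The genes between and beside them did not all follow. Between them lay CC84DRAFT_1208900 and CC84DRAFT_1229218, with 73 and 14 reads in all libraries. CC84DRAFT_1127863, also between them, was called at day 6 with a log2 change of 2.14 and not at day 1, where it was 0.24. CC84DRAFT_1167986, at 21060 bases, was lower on both days, with changes of -0.73 and -1.02. CC84DRAFT_242327, at 29147 bases, rose by 0.98 and 2.45. At day 6 its selenite libraries were at 4.89, 4.49, 9.16 and 6.11 scaled CPM and its controls at 0.199, 0.0498, 0.933, 1.39 and 1.68, with no overlap.

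The longest row of neighbours called the same way lay on the right end of NW_017253367.1, between 2192349 and 2201576, where 5 adjacent genes were higher with selenite at day 1. The first 4 of them in the order of the scaffold were also the longest such row at day 6. Their strands alternated in part: CC84DRAFT_1261936 and CC84DRAFT_1198234 lay on the minus strand and CC84DRAFT_1097853, CC84DRAFT_970789 and CC84DRAFT_1178845 on the plus strand.

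CC84DRAFT_1198234 was the strongest of the row. Its selenite libraries at day 1 were at 530, 772, 785, 789 and 555 scaled CPM, against a lowest control of 5.60, a median of 20.03 and a highest of 24.97. At day 6 they were at 201, 72.9, 193 and 262, against controls at 10.9, 28.4, 11.8, 31.9 and 33.7. The groups did not overlap on either day, and the values with selenite were lower at day 6 than at day 1. On the log2 scale the change was 5.36 ± 0.35 at day 1 (limma adjusted p = 1.63e-12) and 2.95 ± 0.39 at day 6 (adjusted p = 8.54e-07). That the change was smaller at day 6 had an adjusted p of 0.000612.

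CC84DRAFT_1261936, at the inner edge of the row, had no read in any control library of day 0 or day 1. With selenite at day 1 it was at 4.85, 9.90, 8.61, 3.73 and 11.1 scaled CPM. The mean was 60.6 times a floor of 3 reads per control library. Against a floor of 3 fragments, with both mates counted, that fold would be smaller. At day 6 the selenite libraries were at 4.12, 0.467, 4.93 and 2.05, and 1 of the 5 controls had a level above 0, at 0.498. That control lay above the lowest selenite library, so the groups overlapped at day 6, with adjusted p = 3.09e-05 in limma.

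Between these genes CC84DRAFT_1097853 had no read in controls of day 0 or day 1 either. Its levels with selenite at day 1 ran from 0.383 to 4.65 scaled CPM. CC84DRAFT_970789 and CC84DRAFT_1178845 were low in every group and changed less, by 1.53 and 1.66 at day 1. The latter was not called at day 6, with a log2 change of 0.54 and adjusted p = 0.221 in limma. The row was bounded by CC84DRAFT_1167058, which fell by 0.70 and 1.04 on the log2 scale at day 1 and day 6, and by CC84DRAFT_1220237, not called at day 1 (0.08) and higher at day 6 (0.76). Farther out on this end CC84DRAFT_1167063 fell on both days, by 3.10 and 3.04. Its groups overlapped at day 1, where selenite replicate 1 was at 5.74 scaled CPM and the other selenite libraries at 0 to 0.895.

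CC84DRAFT_1168378, on the right end of NW_017253370.1 (plus strand, 1361194 to 1362542), rose chiefly at day 1. Its selenite libraries were then at 478, 1729, 558, 457 and 641 scaled CPM and its controls between 11.9 and 20.5, with a median of 17.4. At day 6 the selenite libraries were at 89.0, 66.5, 133 and 113 and the controls at 16.8, 54.1, 17.6, 69.7 and 50.3. The day 1 groups lay far apart, whereas at day 6 the lowest selenite library was under the highest control. The fitted log2 change was 5.31 ± 0.34 at day 1 and 1.44 ± 0.37 at day 6 (limma adjusted p = 9.6e-13 and 0.00254), and the difference between days was -3.87 ± 0.50 (adjusted p = 1.55e-06).

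Its neighbours went the other way at day 1. CC84DRAFT_1168379, the next gene toward the end, had selenite libraries at 0.0638, 2.53, 0, 0 and 0.775 scaled CPM and controls between 4.54 and 9.79, and fell by 3.10 on the log2 scale. At day 6 its change was 0.19 and was not called. CC84DRAFT_1128793, at 22922 bases, was 1 of the 7 members lower at day 1 (-1.69) and higher at day 6 (0.84).

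The day 1 list of the largest rises was completed by CC84DRAFT_1164794, CC84DRAFT_1234402, CC84DRAFT_1219478, CC84DRAFT_1209275 and CC84DRAFT_1206769. Their log2 changes at day 1 ran from 3.17 to 3.89, and each was also called higher at day 6, with changes from 1.24 to 2.16. All were low without selenite, with means in the day 1 controls of 2.21 scaled CPM or less. CC84DRAFT_1219478, the outermost gene on the left end of NW_017253367.1, had selenite libraries at day 1 of 10.6, 12.2, 18.7, 26.2 and 13.8 and controls of at most 1.18. At day 6 its selenite libraries were unequal, at 18.8, 0.845, 4.23 and 4.61, and the controls reached 1.07. Its groups were apart at day 1 and overlapped at day 6.

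**Figure D4:**
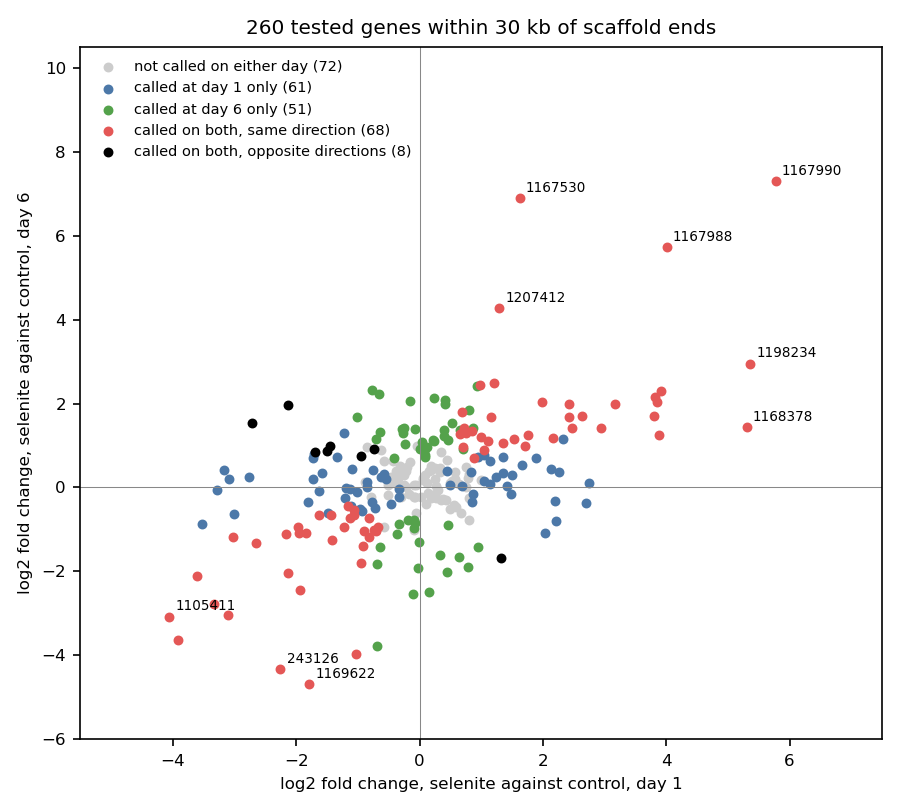
Log2 fold change with selenite at day 1 (x) against day 6 (y) for the 260 tested genes within 30 kb of a scaffold end, coloured by whether they were called on each day; numbers beside points are locus tags without their prefix. The days share no library; 68 members were called on both days in the same direction and 8 in opposite directions.

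The day 6 list of rises added 7 genes, of which 4 were also called higher at day 1 and 3 were not called then. CC84DRAFT_1167530, on the right end of NW_017253368.1 (plus strand, 1628522 to 1629310), had selenite libraries at 132, 237, 189 and 84.9 scaled CPM at day 6 and controls at 0.894, 0.124, 0.533, 2.16 and 0.806. At day 1 its selenite libraries were at 3.19, 2.32, 10.0, 7.86 and 7.51 and its controls between 0.560 and 3.33. The groups were wide apart at day 6 and overlapped at day 1. Its log2 change was 6.90 ± 0.47 at day 6 and 1.62 ± 0.43 at day 1 (limma adjusted p = 1.2e-11 and 0.00176). The difference between days, 5.28 ± 0.63, was the largest positive one among the named members (adjusted p = 5.53e-07).

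CC84DRAFT_1207412, 2587 bases from the right end of NW_017253366.1, moved in the controls as well. Day 0 libraries were at 0, 0 and 0.413 scaled CPM, day 1 controls between 32.4 and 88.0 with a median of 59.9, and day 6 controls at 0.844, 1.05, 0.587, 0.111 and 2.37. With selenite it was at 185, 138, 117, 113 and 199 at day 1 and at 98.4, 7.22, 23.96 and 21.6 at day 6. Controls were thus high at day 1 and near 0 before and after, and selenite libraries were above the controls of their day throughout. With selenite its log2 level changed by 1.30 ± 0.44 at day 1 and 4.27 ± 0.48 at day 6 (limma adjusted p = 0.0121 and 8.51e-08), and the change of the controls from day 0 to day 1 was 6.62 ± 0.51 (adjusted p = 1.45e-09).

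The other rises at day 6 were smaller. CC84DRAFT_1220808, CC84DRAFT_1186638 and CC84DRAFT_1181854 rose by 2.49, 2.33 and 2.23 with no overlap between groups. CC84DRAFT_1186638 had day 6 selenite libraries at 2.56, 11.8, 10.7 and 18.4 scaled CPM against controls between 1.14 and 1.86, and was not called at day 1 (-0.77, adjusted p = 0.111 in limma). STRG.3477 rose by 2.42 at day 6, and by 1.36 without replicates 1 and 3 of the day 6 controls, where it stood at 0 and 0.693 scaled CPM. CC84DRAFT_1221785, one of the 5 members with the highest level per kb, was at 607, 467, 411 and 520 scaled CPM with selenite at day 6 and at 113, 92.5, 136, 102 and 154 in controls, a change of 2.07 ± 0.23 (adjusted p = 5.14e-08). Its groups did not overlap at day 6.

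Among the members that fell, CC84DRAFT_243126 carried the most RNA. It lies 27454 bases from the left end of NW_017253370.1 (minus strand, 27454 to 28658) and had the highest level per kb of all members, 2033 scaled CPM per kb. Day 0 libraries were at 4479, 3736 and 4163 scaled CPM, and day 1 controls ran from 1757 through a median of 2059 to 3716. Selenite libraries were at 506, 614, 388, 422 and 400 at day 1. At day 6 controls were at 4291, 4774, 4572, 4642 and 4793 and selenite libraries at 190, 298, 162 and 290. On both days all selenite libraries lay below all controls, and the controls themselves were lower at day 1 than at day 0 or day 6. In the fit this gave a log2 change of -2.26 ± 0.23 at day 1 (limma adjusted p = 4.6e-09) and -4.34 ± 0.25 at day 6 (adjusted p = 5.93e-13), with a difference of -2.08 ± 0.34 between days (adjusted p = 2.96e-05).

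CC84DRAFT_1105411, 469 bases from the left end of NW_017253376.1 (minus strand, 469 to 777), had the largest fall at day 1. Selenite libraries were at 5.93, 9.97, 11.3, 6.72 and 7.86 scaled CPM, and the controls ran from 65.8 through a median of 173 to 272. At day 6 selenite libraries were at 16.1, 25.6, 11.5 and 19.5 and controls at 131, 193, 174, 150 and 122. On neither day did the groups overlap. On the log2 scale the change was -4.06 ± 0.29 at day 1 (limma adjusted p = 7.73e-12) and -3.08 ± 0.32 at day 6 (adjusted p = 2e-08).

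CC84DRAFT_1131528 and CC84DRAFT_1169622 lie on the same end, the left one of NW_017253375.1. CC84DRAFT_1131528 was at 4.47, 3.82, 3.38, 6.86 and 6.79 scaled CPM with selenite at day 1 and between 64.7 and 109 in controls. Its groups lay apart on both days, and it fell by 3.91 at day 1 and by 3.63 at day 6 on the log2 scale. Another gene of this end, CC84DRAFT_1169626, fell by 3.29 at day 1 and was at -0.06 at day 6, not called. CC84DRAFT_1169622, the outermost gene (minus strand, 1015 to 1807), was at 1.12, 2.47, 2.96 and 1.74 scaled CPM with selenite at day 6 and at 72.8, 97.4, 44.98, 77.4 and 40.01 in controls. At day 1 it was at 70.5, 63.2, 43.4, 46.1 and 109 with selenite and between 149 and 303 in controls. Day 0 libraries were higher still, at 619, 250 and 357, and the selenite and control groups did not overlap on either day. The selenite change was -1.79 ± 0.28 at day 1 and -4.68 ± 0.31 at day 6 (limma adjusted p = 3.92e-06 and 5.78e-12). The change of the controls from day 0 to day 6 was -2.59 ± 0.33 (adjusted p = 2.84e-05).

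CC84DRAFT_281648, on the left end of NW_017253371.1, was among the 5 members with the highest level per kb. At day 1 its controls ran from 1628 through 2603 to 3224 scaled CPM and its selenite libraries were at 247, 170, 181, 249 and 166. At day 6 its controls split, at 120, 606, 139, 781 and 1111, and its selenite libraries were at 91.6, 106, 76.5 and 83.5. The groups were far apart at day 1 and close at day 6, where control replicates 1 and 3 were near the selenite level. The fitted log2 change was -3.61 ± 0.40 at day 1 (limma adjusted p = 2.08e-08) and -2.12 ± 0.44 at day 6 (adjusted p = 0.00032). Without those 2 controls the change at day 6 was -3.23 (adjusted p = 2.25e-10).

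CC84DRAFT_1169619, on the right end of NW_017253374.1, fell at day 1 and was not called at day 6. Selenite libraries at day 1 were at 31.3, 33.9, 37.4, 30.1 and 27.7 scaled CPM and controls between 236 and 361. At day 6 selenite libraries were at 98.4, 209, 155 and 246 and controls at 76.5, 210, 112, 184 and 93.4, so the groups overlapped. The change was -3.17 ± 0.27 and then 0.42 ± 0.30 (limma adjusted p = 2.76e-10 and 0.265), and the difference of 3.59 ± 0.41 passed its test (adjusted p = 2.73e-07). CC84DRAFT_1262397 and CC84DRAFT_1142454 had the same order of changes, with falls of 3.53 and 3.03 at day 1. At day 6 CC84DRAFT_1142454 still fell, by 1.17, and CC84DRAFT_1262397 was not called (-0.87, adjusted p = 0.0542).

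At day 1 CC84DRAFT_1088227 also fell, by 3.33 on the log2 scale. CC84DRAFT_1154002, 12520 bases from the left end of NW_017253370.1, was at 2.17, 1.16, 0.0528, 0 and 2.14 scaled CPM with selenite at day 1 and between 4.11 and 17.6 in controls. Its day 1 groups did not overlap, and at day 6 it was not called (-0.63, limma adjusted p = 0.33). Other falls at day 6 were those of STRG.3480, STRG.1272, CC84DRAFT_1088227, CC84DRAFT_1166350 and CC84DRAFT_1201981, by 2.49 to 3.97 on the log2 scale. STRG.3480, on the right end of NW_017253362.1, was at 8.88, 10.6, 5.61 and 9.16 scaled CPM with selenite and at 190, 142, 160, 100 and 118 in controls. STRG.1272, 767 bases from the left end of NW_017253361.1, was at 1.37, 1.11, 0.727 and 0.579 with selenite and at 29.2, 18.5, 30.9, 13.2 and 10.54 in controls. In both genes the day 6 groups were clearly apart. STRG.1272 was not called at day 1 (-0.69, limma adjusted p = 0.11), nor were CC84DRAFT_1166350 (-0.10) and CC84DRAFT_1201981 (0.15).

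**Figure D5:**
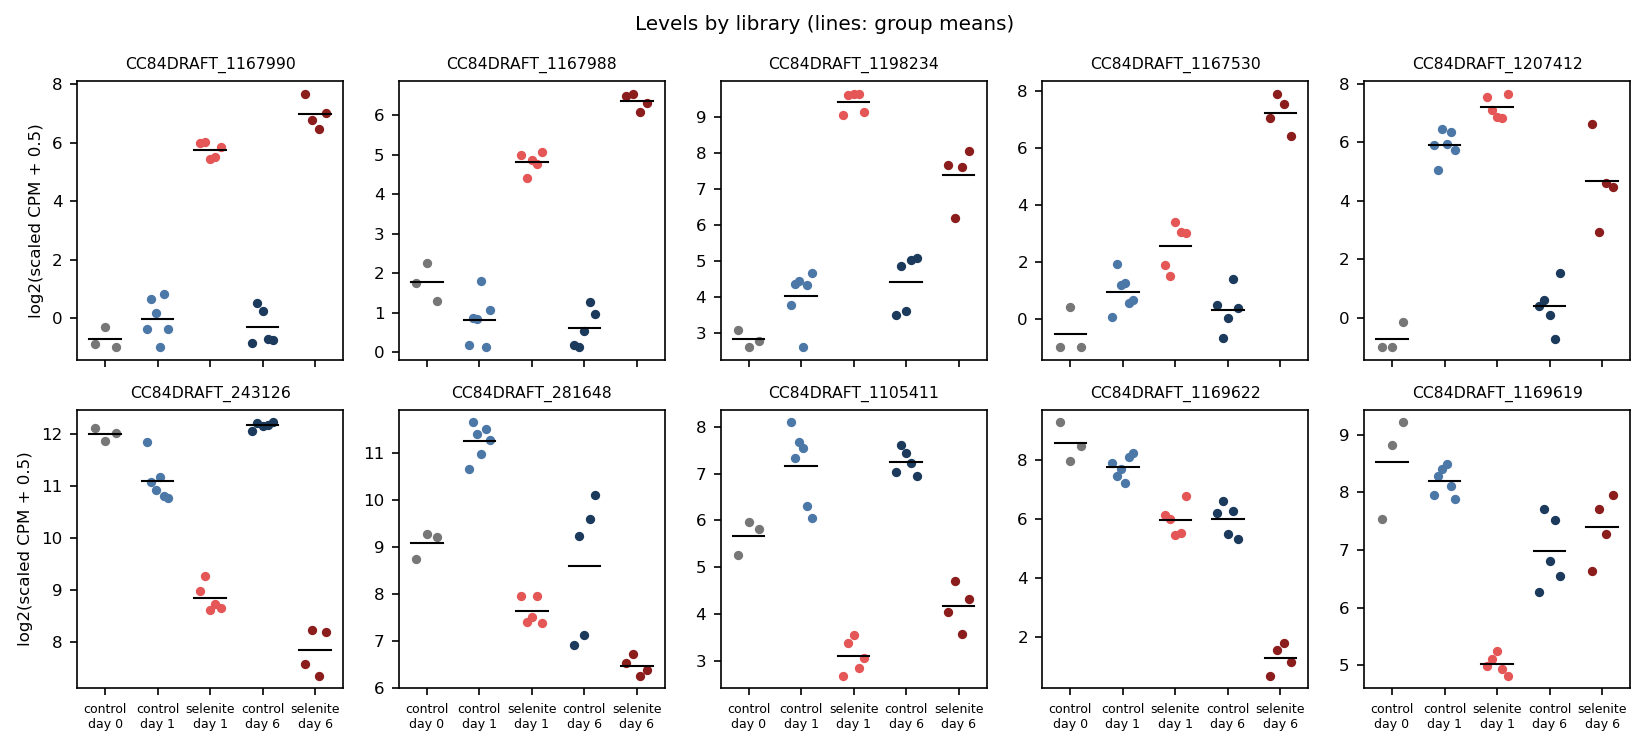
Level of 10 named genes in each of the 23 libraries as log2(scaled CPM + 0.5), by group; points are libraries and lines are group means of the plotted values. The upper row holds genes higher with selenite, among them CC84DRAFT_1207412 with its high day 1 controls, and the lower row genes lower with selenite at day 1, day 6 or both.

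The selenite change differed between the days for 98 of the 260 tested members, 62 with a more positive change at day 6 and 36 with a more negative one. That was 37.7%. Of all tested genes 43.4% were called, 22.7% positive and 20.7% negative. DESeq2's size factors left 52.4% of such calls positive, against 63.3% here. Without day 6 control replicates 1 and 3 there were 87 such calls, 48 positive and 39 negative. Over all genes such calls then fell from 5930 to 4949. CC84DRAFT_1160395 and CC84DRAFT_430264, neighbours on opposite strands at 10329 and 11743 bases from the left end of NW_017253361.1, crossed over between the days. At day 1 CC84DRAFT_430264 was at 0, 1.78, 2.96, 0.398 and 1.13 scaled CPM with selenite and between 7.496 and 10.99 in controls. At day 6 it was at 2.40, 3.71, 3.32 and 3.001 with selenite and at 0.248, 0.547, 1.49, 1.44 and 0.470 in controls. Selenite libraries were all below the controls at day 1 and all above them at day 6, where the controls had dropped.

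The change of CC84DRAFT_430264 was -2.72 ± 0.38 at day 1 and 1.53 ± 0.42 at day 6 (limma adjusted p = 8.95e-07 and 0.00429). For CC84DRAFT_1160395 it was -2.13 ± 0.36 and 1.97 ± 0.39 (adjusted p = 1.08e-05 and 0.000205). From day 0 to day 6 the controls fell by 2.32 and 2.37 on the log2 scale, in the same order. The next gene inward, CC84DRAFT_1234402, had risen on both days, by 3.85 and 2.05, and with this pair made a row of 3 adjacent genes called higher at day 6.

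CC84DRAFT_1150342, second in level per kb among the members at 523 scaled CPM per kb, also crossed over. It was at 171, 135, 224, 199 and 169 scaled CPM with selenite at day 1. The controls had a lowest value of 299.99, a median of 525 and a highest value of 579. At day 6 it was at 242, 644, 520 and 811 with selenite and at 177, 363, 198, 343 and 251 in controls. The groups were apart at day 1 and overlapped at day 6. Its change was -1.46 ± 0.26 and then 0.98 ± 0.29 (limma adjusted p = 3.01e-05 and 0.00693). Without replicates 1 and 3 of the day 6 controls the later change was 0.64 and was not called (adjusted p = 0.0954). CC84DRAFT_1223855 went the opposite way, from 2.03 at day 1 to -1.09 at day 6, the latter not called (adjusted p = 0.11).

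The ends with the most members called 1 way were led at day 1 by the left ends of NW_017253370.1 (7 lower of 13 members), NW_017253372.1 (7 lower of 14) and NW_017253375.1 (5 lower of 8). The median log2 changes over their tested members were -0.78, -0.74 and -1.51. Each also held at least 1 member called higher. At day 6 the right end of NW_017253367.1 had 6 higher of 12, the left end of NW_017253371.1 had 5 lower of 11 and the left end of NW_017253361.1 had 5 higher of 12. Over all tested genes 31.7% were called lower at day 1, and 27.1% higher and 21.5% lower at day 6, and these ends were picked for their counts. On the left end of NW_017253371.1 the 5 lower genes stood beside CC84DRAFT_1209275, which rose on both days.

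Neighbours at the ends moved in the same direction in some pairs and apart in others. Of 59 adjacent member pairs in which both genes were called at day 1, 29 (49.2%) had the same direction, and on the whole of the same scaffolds 61.2% of 5135 such pairs did. At day 6 the shares were 62.8% of 43 pairs and 64.6%. These shares are descriptions, since neighbouring pairs share genes.

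Fewer members were called between control groups. Day 0 had 3 libraries against 4 to 6 in the other groups, so these counts are not like for like with those for selenite. From day 0 to day 1 the controls changed in 63 members, 43 higher and 20 lower (24.2%). Of all tested genes 27.8% were called, 15% higher and 12.8% lower. Library size alone gave 25 higher and 52 lower, against a shift of -0.49 in the median of all genes. Besides CC84DRAFT_1207412, the largest rises were those of STRG.5174 and CC84DRAFT_281491, by 4.22 and 4.11 on the log2 scale. STRG.5174 was at 2.16, 4.40 and 2.20 scaled CPM at day 0 and between 44.7 and 102 in day 1 controls. CC84DRAFT_281491 was at 0, 0.956 and 0.619 at day 0 and between 9.65 and 21.2. In both, the groups did not overlap. CC84DRAFT_1120607, CC84DRAFT_1201981 and STRG.5171 fell by 2.16, 2.14 and 1.74.

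From day 0 to day 6 the controls changed in 55 members, 28 higher and 27 lower (21.2%). Of all tested genes 21.1% were called, 9.73% higher and 11.4% lower. Both control comparisons share the day 0 libraries. The count of 55 was 23 without day 0 replicate 2, 24 without day 0 replicate 3 and 32 without day 6 control replicates 1 and 3. Library size alone gave 43 higher and 10 lower, with a shift of 0.29 in the median of all genes. CC84DRAFT_1246155 rose by 3.19 ± 0.48 (limma adjusted p = 0.0001), from 5.46, 1.53 and 1.51 scaled CPM to 21.7, 13.5, 34.3, 33.1 and 35.8, with no overlap. With selenite at day 6 it was at 4.89, 7.87, 13.8 and 2.29, lower than the day 6 controls by 2.03. CC84DRAFT_1223855 rose by 2.80 in the controls, a call that edgeR on recovered reads did not make (adjusted p = 0.071). STRG.1272 rose by 2.78 and CC84DRAFT_1169622 fell by 2.59.

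The 18 members with STRG names made up 5.19% of the genes within 30 kb, and 16 were tested. Such names made up 4.48% of genes between 30 and 60 kb and 2.11% of all genes. At day 1 selenite raised 4 and lowered 2 of them, where 30.8% of all tested genes were called higher and 31.7% lower. At day 6 it raised 5 and lowered 5, against 27.1% and 21.5%. The authors' deposited table for day 1 listed 210 members and called 110, 50 higher and 60 lower (52.4%, against 60.8% of all genes in the authors' deposited table). The call and its sign were shared by the fit above for 104 of these. For day 6 the authors' deposited table listed 233 members and called 117, 68 higher and 49 lower, with 111 shared (50.2% called, against 47.6%).

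Library totals ran from 23282564 to 32681888 reads counted in genes, and composition factors from 0.557 to 1.61. On the second principal component, which held 15.6% of the variance, day 0 replicate 1 (-37.1) stood apart from the other day 0 libraries (1.77 and 4.37), and day 6 control replicates 1 and 3 (-90.4 and -84.7) from the other day 6 controls (-44.4 to -29.1). Day 1 control replicate 1 (14.9) likewise stood apart from the other day 1 controls (56.6 to 81.2). The labels give a single batch. What part this played in the results above was not tested, beyond the values given without those libraries.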

How the data were processed

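Per the labels' protocols, total RNA was treated with DNase and made into stranded libraries for messenger RNA. The submitters' processing notes name STAR 2.7.1a, Trimmomatic 0.39, edgeR 3.36.0 under R 4.1.0, and Subread 2.0.6 with its featureCounts. Per the file headers, featureCounts 2.0.6 counted with strand option 2 and no option for reads that map to several places. Paired input was declared without pair counting, so the 2 mates of a fragment entered as separate reads. Floors cover counting error only, and a floor of 3 reads is lower than one of 3 fragments. No genome build is named in the labels or headers. The CPM values deposited by the authors are reads scaled to a common library total in genes, and 100% of the 348772 values came out as whole reads within 1e-06. The authors' deposited tables also hold log2 fold changes, an F statistic (a score per gene) and p-values with adjusted p-values. A further 46 columns of per-sample values were not used. The count table, with numbers for 13 genes in the form used here, gave gene positions and lengths, and library totals were read from the steps of the CPM values.

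CPM values were divided by TMM factors (scaled CPM) and tested with limma 3.58.1 (R 4.3.3, edgeR 4.0.16) with a trend, two-sided, on log2(scaled CPM + 0.5), in 1 fit of 5 group means over 23 libraries. Genes were kept by filterByExpr with a minimum count of 10 and a minimum total of 15. The design had foreseen edgeR's quasi-likelihood test had whole counts been at hand. It was instead run on the recovered reads as an alternative, as were DESeq2 1.42.0 and voom. The fit was tested on simulated data in which 200 genes changed, equally up and down. Far fewer genes changed there than were called here, so that test does not bear on the scaling. Fold changes of the genes are log2 with SE.

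Members and lists were chosen with earlier results of these data known. Named genes were the 10 largest changes in each direction at each day (3 for other comparisons) among called members without group overlap, except for the difference between days, and with at least 5 scaled CPM in the higher group, plus the 5 highest levels per kb and the genes of the longest row. Other genes are named as their neighbours, chosen after their values were seen. Of the members 8 overlap a gene on the same strand, and their counts are uncertain where reads fall in both genes. None of the 8 is among the 44 genes named by change or level or in the longest row. No genome, promoter or protein sequence was used here.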

Additional observations from a re-analysis of the deposited data

Results flagged for a closer look

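In 15 of 184 checks of a group of 4 to 10 libraries, 1 library stood apart from the rest by Dixon's test at the 95% level, where chance flags about 1 in 20. The checks did not cover all members, so that all 15 were in named genes says nothing of the other members. CC84DRAFT_1168378 was at 1729 scaled CPM in day 1 selenite replicate 2, with the others at 457 to 641. CC84DRAFT_1261936 was at 0.498 scaled CPM in day 6 control replicate 2, with the others all at 0. CC84DRAFT_1234402 was at 0.582 scaled CPM in day 6 control replicate 5, with the others at 0 to 0.0995. CC84DRAFT_1209275 was at 1.78 scaled CPM in day 1 control replicate 3, with the others at 0 to 0.630. CC84DRAFT_1088227 was at 15.7 scaled CPM in day 6 control replicate 4, with the others at 8.04 to 9.09. CC84DRAFT_1169626 was at 2.52 scaled CPM in day 6 selenite replicate 1, with the others at 0.0445 to 0.104. CC84DRAFT_1142454 was at 27.8 scaled CPM in day 6 selenite replicate 2, with the others at 12.1 to 14.2. CC84DRAFT_243126 was at 3716 scaled CPM in day 1 control replicate 1, with the others at 1757 to 2299. CC84DRAFT_1167063 was at 5.74 scaled CPM in day 1 selenite replicate 1, with the others at 0 to 0.895. CC84DRAFT_1166350 was at 692 scaled CPM in day 1 selenite replicate 2, with the others at 181 to 264. CC84DRAFT_1166350 was at 18.1 scaled CPM in day 6 selenite replicate 2, with the others at 32.4 to 34.1. CC84DRAFT_1223855 was at 2.27 scaled CPM in day 1 control replicate 1, with the others at 0 to 0.812. CC84DRAFT_281491 was at 3.55 scaled CPM in day 1 selenite replicate 2, with the others at 6.97 to 7.69. CC84DRAFT_281491 was at 18.4 scaled CPM in day 6 selenite replicate 1, with the others at 0.790 to 1.74. CC84DRAFT_1150342 was at 299.99 scaled CPM in day 1 control replicate 1, with the others at 494 to 579.

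The difference between the days was tested in the same limma fit, adjusted over all genes. The selenite change differed for 35 of the 44 genes named by change or level, and 43.4% of all tested genes were called. The named genes were chosen for large changes, some for this same difference, so their count cannot be read against that share. Of the 35, 20 had a positive difference (day 6 minus day 1) and 15 a negative one. The positive log2 differences were 5.28 for CC84DRAFT_1167530, 4.25 for CC84DRAFT_430264, 4.103 for CC84DRAFT_1160395, 3.59 for CC84DRAFT_1169619 and 3.29 for CC84DRAFT_1168379. They were next 3.23 for CC84DRAFT_1169626, 3.10 for CC84DRAFT_1186638, 2.97 for CC84DRAFT_1207412, 2.90 for CC84DRAFT_1181854 and 2.66 for CC84DRAFT_1262397. Further values were 2.52 for CC84DRAFT_281491, 2.44 for CC84DRAFT_1150342, 2.37 for CC84DRAFT_1154002, 1.85 for CC84DRAFT_1142454 and 1.72 for CC84DRAFT_1167988. The smallest were 1.67 for CC84DRAFT_1221785, 1.52 for CC84DRAFT_1167990, 1.49 for CC84DRAFT_281648, 1.47 for CC84DRAFT_242327 and 1.29 for CC84DRAFT_1220808. The negative log2 differences were -3.87 for CC84DRAFT_1168378, -3.12 for CC84DRAFT_1223855, -3.08 for STRG.1272, -2.95 for STRG.3480 and -2.90 for CC84DRAFT_1169622. After these came -2.65 for CC84DRAFT_1164794, -2.64 for CC84DRAFT_1201981, -2.47 for CC84DRAFT_1246155, -2.44 for CC84DRAFT_1166350 and -2.41 for CC84DRAFT_1198234. The remaining ones were -2.12 for CC84DRAFT_1209275, -2.08 for CC84DRAFT_243126, -1.80 for CC84DRAFT_1234402, -1.63 for CC84DRAFT_1261936 and -1.18 for CC84DRAFT_1206769.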

How the results depend on the processing

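Of 2240 values of named genes under the alternatives, 2231 kept direction and side of the threshold, 3 were no longer called, 5 became called and 1 turned. The last 6 were all CC84DRAFT_1221785 at day 1, 0.41 and not called as reported, -0.011 with library size alone and 0.49 to 0.59 where called (DESeq2's size factors or test, without day 1 control replicate 1 or 4, without day 6 control replicates 1 and 3). Of 190 counts of called members 172 stayed within 1.5 times. In the order selenite at day 1, selenite at day 6, difference between days, day 1 controls and day 6 controls (both against day 0), the counts were 79, 55, 57, 23 and 7 when tested against a 1.5-fold change, 66, 61, 49, 27 and 28 with members within 15 kb and 345, 285, 242, 159 and 124 with members within 60 kb. Fewer or more genes are counted there by construction. The count for controls at day 6 was 32 without day 6 control replicates 1 and 3 together, an alternative chosen after seeing the data, and the cause was not tested. Leaving out 1 library gave 129 to 145, 109 to 132, 94 to 104, 47 to 67 and 23 to 60. The labels do not say that replicate numbers pair samples, and the correlations of same-numbered libraries were not all above 0.1. The correlations ran from -0.208 to 0.403, and those of replicate 1 between control groups were 0.331, 0.331 and 0.403. With a replicate block the counts were 134, 128, 104, 62 and 55. A level near 3 reads in a library limits what can be seen of the 87 members not tested.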
